A study of Mus musculus with 8 samples.

Results

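Transcript levels in vitrified and thawed mouse blastocysts were compared with those in fresh blastocysts across the 10755 of 19688 genes that reached 1 FPKM in at least 2 of the series' 8 libraries. FPKM, the unit of the table, scales a gene's sequenced fragments by its length and by the size of the library. The fresh group held 2 libraries of blastocysts that were never vitrified, the control of the series. The vitrified group held 3 libraries of blastocysts vitrified and thawed in media without melatonin. The other 3 libraries came from blastocysts vitrified and thawed with 1e-10 M melatonin in both media, and entered here through the estimate of spread and through the filter, which sets the genes over which p-values were adjusted. The sources used here do not give the strain, the age of the embryos or how many embryos made up a library. They number the biosamples without saying whether these were separate animals, pools or cultures, so that p-values measure only the spread between these libraries.

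Vitrification cools an embryo in concentrated cryoprotectant so fast that water sets as a glass and does not form ice, and the embryo meets osmotic, thermal and solvent stress on the way in and out. A blastocyst consists of an outer epithelium, the trophectoderm, which pumps fluid into the cavity and later implants, and of an inner cell mass that splits into the pluripotent epiblast and the primitive endoderm. Cells under amino acid shortage, oxidative stress or misfolded proteins phosphorylate a translation factor and make the transcription factor Atf4, which switches on amino acid synthesis, amino acid uptake and a set of stress genes. This programme is called the integrated stress response.

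Defining markers of the blastocyst were present in all 5 libraries. The trophectoderm keratin Krt18 stood at 5948 and 5324 FPKM in fresh replicates 1 and 2 and at 7783, 4947 and 6932 in vitrified replicates 1 to 3, and Cdx2, a transcription factor of the trophectoderm, at 22.2 and 18.6 against 20.2, 20.8 and 18.8. Values set against each other in this way are fresh replicates 1 and 2, in this order, against vitrified replicates 1 to 3. Markers of cells that could accompany an embryo were at or near 0: the 3 analysed cumulus cell markers of a list of 10 summed to 0.185 to 1.39 FPKM and the 4 of 8 analysed fibroblast markers to at most 0.621, and none of these 7 reached the filter. The 7 of 10 analysed oocyte markers summed to 4.61 and 2.16 FPKM in the fresh and to 0.999, 2.26 and 1.97 in the vitrified libraries. The 4 of 6 analysed sperm markers summed to 0.938 and 0.311 FPKM in the fresh and to 1.79, 2.79 and 0.331 in the vitrified libraries. An estimated 5821000 to 9945000 fragments stood behind each of the 5 libraries. In the fresh libraries 14260 and 14741 genes were above 0, and in the vitrified ones 15749 to 16400.

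The fresh libraries differed strongly from each other. Between them 740 genes were at least 2-fold higher in replicate 2 and 352 at least 2-fold higher in replicate 1, on the scale of log2(FPKM + 1) that is used for every difference given here. The genes with the largest gaps included the lysosomal protease family member Ctsll3, at 151 and 8.91 FPKM in fresh replicates 1 and 2 and 1.497, 1.64 and 0 in the vitrified libraries. Sla2, an adaptor protein of lymphocyte signalling, was at 0.0398 and 35.2 against 0.0566, 0.0579 and 0.145 FPKM, so that fresh replicate 2 stood apart from all the others. The mitochondrially encoded complex I subunit mt-Nd3 was at 331 and 35.6 against 79.8, 142 and 114 FPKM, and here the vitrified libraries lay between the fresh ones. The nuclear noncoding RNA Malat1 was at 11.4 and 93.4 against 139.6, 146 and 149 FPKM.

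The vitrified mean was at least 2-fold above both fresh libraries for 240 genes and at least 2-fold below both for 62. It was at least 2-fold above fresh replicate 1 alone for 737 genes and above fresh replicate 2 alone for 294, and the corresponding numbers below were 148 and 136. For 15 genes the vitrified mean was at least 2-fold above one fresh library and at least 2-fold below the other. The median difference over all tested genes was 0.22 against fresh replicate 1, 0.07 against fresh replicate 2 and 0.14 against both.

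**Figure D1:**
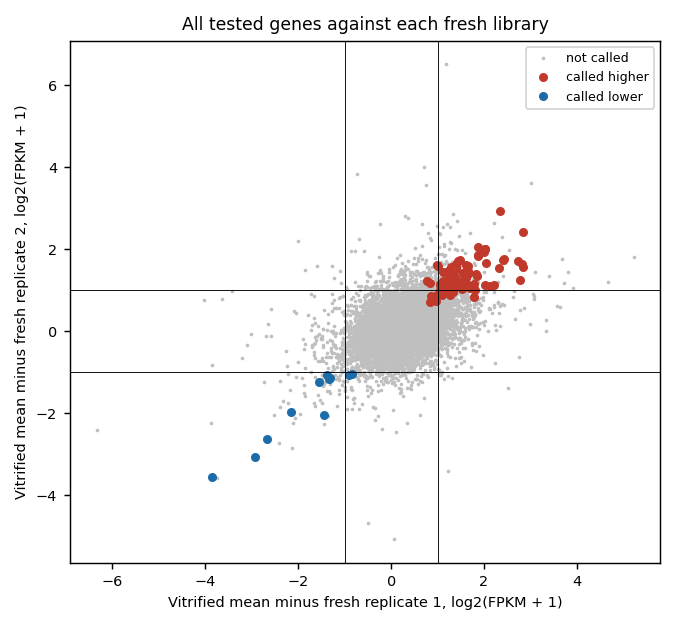
Each point is 1 of 10755 tested genes, with the vitrified mean minus fresh replicate 1 on the x axis and minus fresh replicate 2 on the y axis, both in log2(FPKM + 1), and thin lines at a 2-fold difference. Called genes lie along the diagonal, with 69 of 82 higher (red) and 9 of 11 lower (blue) at least 2-fold against each fresh library, and the grey cloud is wide in both directions.

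With limma, fitted to log2(FPKM + 1) across all 8 libraries, 82 genes rose after vitrification (0.762% of those tested) and 11 fell (0.102%) at a Benjamini-Hochberg adjusted p below 0.05. All 93 had no overlap between the groups. That by itself was common: every vitrified library lay above both fresh libraries for 2836 genes (26.4%) and below both for 1141 (10.6%). At an unadjusted p below 0.05 there were 1679 higher and 490 lower genes. The count and its split depended on the scaling: with median ratio scaling 3 genes were higher and 4 lower, all 7 among the 93, and with quantile normalization 0 were higher and 3 lower (1007 and 884 at an unadjusted p below 0.05 in limma). Leaving out fresh replicate 1 gave 14 higher and 3 lower genes, 5 of these 17 among the 93, and leaving out fresh replicate 2 gave 373 and 60, and the genes called with either fresh library alone as well as with both were Arpc1b, mt-Atp6, Btbd1 and the noncoding Gm11100 and Gm14121.

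The genes that fell included Atf4 and Chac1 of the integrated stress response and Psph of serine synthesis. Protein levels and phosphorylation are not in these data, and whether Atf4 drove the other falls was not tested. Chac1, an enzyme that degrades glutathione and is switched on by Atf4, was at 37.8 and 41.8 FPKM in fresh replicates 1 and 2 and at 4.35, 4.81 and 3.28 in vitrified replicates 1 to 3. Its vitrified values formed a tight group far below the fresh ones, a log2 difference of -2.998 ± 0.50 SE, adjusted p = 0.0394. Atf4 itself, the transcription factor of the response, was at 142 and 158 FPKM in the fresh and 72.6, 78.6 and 73.99 in the vitrified libraries, with little spread within each group, and fell by 0.98 on the log2 scale (adjusted p = 0.0477). Psph, the phosphatase that releases serine at the end of its synthesis, was at 43.8 and 35.03 against 12.1, 16.3 and 14.8 FPKM and fell by 1.39 on the log2 scale (adjusted p = 0.0394). Of the 8 fits that left out 1 library, the call of Chac1 held in 2, that of Atf4 in 1 and that of Psph in 3, and of the 5 that left out a fresh or vitrified library in 0, 0 and 1.

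Of the 14 tested genes on the integrated stress response list, 2 fell (Chac1 and Atf4, against 0.102% of all tested genes), 0 rose and 12 did not pass. Every vitrified library lay below both fresh for 7, against 10.6% of all tested genes. The list's median was -0.58, beside 0.14 for all tested genes, and stayed below 0 against each fresh library (-0.43 and -0.70). Trib3, a pseudokinase that Atf4 induces, did not pass at 57.5 and 101 FPKM in the fresh and 22.5, 14.1 and 27.1 in the vitrified libraries (adjusted p = 0.135). Asns, asparagine synthetase, was at 175 and 199 against 128, 129.9 and 142 FPKM (adjusted p = 0.138). In the stress cofactor Nupr1 vitrified replicate 1 lay far below the other two, at 63.01 and 67.2 in the fresh and 5.39, 39.03 and 31.5 FPKM in the vitrified libraries (adjusted p = 0.177). Ddit3, a transcription factor that promotes cell death under lasting stress, was high in 1 library only, fresh replicate 2, at 19.5 and 122 against 30.5, 19.1 and 27.0 FPKM (adjusted p = 0.491). The sensor kinases that start the response did not pass: Eif2ak3 was at 0.617 and 2.25 against 2.08, 1.91 and 2.36 FPKM (adjusted p = 0.467) and Eif2ak4 at 1.15 and 1.11 against 1.44, 1.41 and 1.36 (adjusted p = 0.732).

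On the list of amino acid and one-carbon synthesis 1 of 14 tested members fell (Psph, against 0.102% of all tested genes), 0 rose, and 6 had every vitrified library below both fresh (against 10.6%). The serine and mitochondrial one-carbon enzymes made up most of these 6. Psat1, the aminotransferase before Psph, was at 227 and 181 against 74.1, 69.1 and 102 FPKM (adjusted p = 0.0674), and Shmt2, which passes the carbon of serine to folate in mitochondria, was at 101 and 90.3 against 50.7, 61.03 and 66.1 FPKM (adjusted p = 0.0917). Mthfd2, the enzyme after it, was at 86.9 and 91.6 against 50.2, 37.7 and 43.7 FPKM (adjusted p = 0.1099). The cytosolic folate enzyme Mthfd1 lay on the other side, at 80.5 and 64.9 against 152, 108 and 156 FPKM (adjusted p = 0.0607). The list's median was 0.01 against fresh replicate 1 and -0.41 against fresh replicate 2. Of 10 tested amino acid transporters 0 passed in limma (5 at an unadjusted p below 0.05, all lower), 5 had every vitrified library below both fresh (10.6% of all tested genes), and the median was -0.48. The cationic amino acid transporter Slc7a3 was at 26.2 and 21.4 against 3.01, 9.23 and 9.48 FPKM (adjusted p = 0.0607). Of 20 tested aminoacyl-tRNA synthetases, another group that Atf4 can induce, 0 passed in limma (2 higher and 2 lower at an unadjusted p below 0.05) and the median was 0.08.

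**Figure D2:**
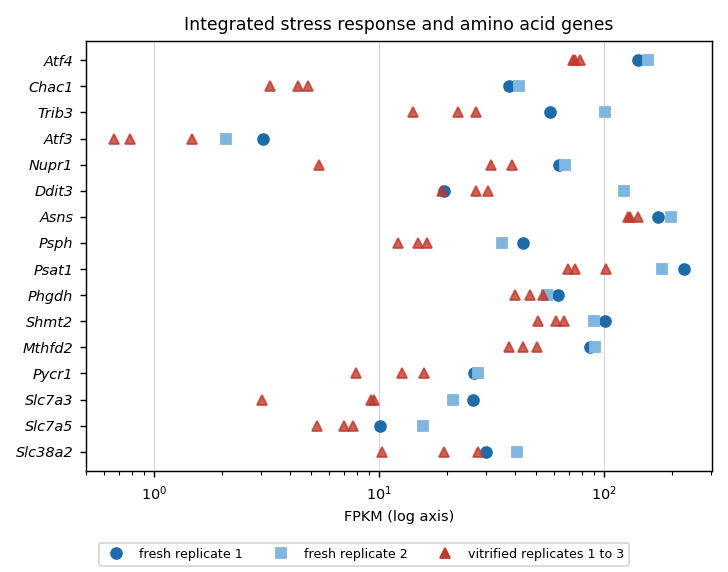
FPKM on a log axis for 16 genes of the integrated stress response, of amino acid synthesis and of amino acid uptake, with circles and squares for fresh replicates 1 and 2 and triangles for vitrified replicates 1 to 3. Triangles lie left of both fresh symbols in every gene shown except Ddit3, where fresh replicate 1 at 19.5 FPKM lies among them, and the genes were chosen for display after their values were seen.

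Atf4 binds as a dimer to a composite element, and the promoters show which of these genes carry its letters close to the start site. The motif searched was TGATGNAA on both strands, from 250 bases before to 50 after each start in RefSeq on GRCm38.p6. It was present for 4.51% of 27025 genes, for 2.49% of the 7628 tested genes with a matched promoter, and for 5 of the 13 matched stress response genes (Asns, Atf3, Chac1, Nupr1 and Trib3). Of 13 matched genes of amino acid and one-carbon synthesis 2 had it, Pycr1 and Got1. Got1, whose stretch is not shown, had every vitrified library above both fresh, at 80.7 and 80.2 against 107, 87.8 and 99.7 FPKM (adjusted p = 0.318). Of 9 matched genes that fell, 2 had it (Chac1 and Ap4s1), and of 52 matched genes that rose, 3 (Apoe, Fbln5 and Stk31). The stretches below show it, in capitals, in 4 promoters whose genes had every vitrified library below both fresh, and a match of letters is not a binding site.
Chac1, chr2:119351007-119351086, plus strand: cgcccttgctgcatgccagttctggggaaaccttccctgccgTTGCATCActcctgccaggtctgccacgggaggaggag
Asns, chr6:7693210-7693289, minus strand: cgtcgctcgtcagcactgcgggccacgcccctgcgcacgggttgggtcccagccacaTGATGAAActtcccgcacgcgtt
Nupr1, chr7:126625543-126625622, minus strand: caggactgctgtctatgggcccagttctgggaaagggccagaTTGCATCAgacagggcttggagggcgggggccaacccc
Pycr1, chr11:120643814-120643893, minus strand: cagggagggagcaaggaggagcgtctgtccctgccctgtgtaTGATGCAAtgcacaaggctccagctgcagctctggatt

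Arpc1b, which also fell, is part of the Arp2/3 complex, which starts new branches on actin filaments. It was at 54.9 and 47.4 FPKM in the fresh and 10.9, 9.93 and 13.9 in the vitrified libraries, a log2 difference of -2.06 ± 0.21 SE, adjusted p = 0.0178, and its call held in all 8 fits that left out 1 library. Its paralog Arpc1a, which takes the same place in the complex, was at 62.1 and 47.8 against 45.4, 46.9 and 46.9 FPKM (adjusted p = 0.463), so the vitrified libraries had more Arpc1a than Arpc1b FPKM in each case while the fresh libraries had the paralogs at similar levels. Of 15 tested genes of the complex and its activators 1 fell (0.102% of all tested genes), 0 rose and 6 had every vitrified library below both fresh (10.6% of all), with a median of -0.46. Exons of Arpc1b overlap those of Pdap1 on the other strand, and Pdap1, looked up after these values were seen, was at 5.23 and 5.34 against 4.13, 4.75 and 5.31 FPKM.

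Other genes that fell belonged to the epithelium, to membranes and to mitochondria. Cldn4, a tight junction claudin of the trophectoderm, was at 979 and 876 FPKM in the fresh and 353, 354 and 494 in the vitrified libraries, and fell by 1.23 on the log2 scale (adjusted p = 0.0394). Reep6, a protein that shapes the endoplasmic reticulum, was at 23.6 and 22.9 against 3.04, 1.99 and 3.77 FPKM, with the fresh libraries nearly equal, and fell by 2.65 (adjusted p = 0.0324). Ap4s1, a subunit of a vesicle adaptor complex, was at 43.2 and 50.4 against 24.7, 22.9 and 23.8 FPKM and fell by 0.94 (adjusted p = 0.0467), but its call held in 0 of the 8 fits that left out a library. The transcriptional cofactor Lmo4 was at 2.89 and 2.46 against 0.601, 0.549 and 0.459 FPKM and Tsc22d3, a glucocorticoid-induced leucine zipper protein, at 3.84 and 2.91 against 0.991, 0.543 and 1.09. Both fell (adjusted p = 0.0394 and 0.0493), at levels where depth matters, since 1 FPKM of a transcript of 2 kb stood for 11.6 to 19.9 fragments.

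Among the 13 genes of the mitochondrial genome, mt-Atp6, a subunit of ATP synthase, fell (0.102% of all tested genes), 0 rose and 12 did not pass. It was at 3997 and 6003 FPKM in the fresh and 1348, 1826 and 1253 in the vitrified libraries, a log2 difference of -1.75 ± 0.21 SE, adjusted p = 0.0324. Its transcript overlaps mt-Atp8 and mt-Co3 on the same strand, and mt-Co3, a subunit of cytochrome oxidase, was high in fresh replicate 1 alone, at 12380 and 4329 FPKM in the fresh and 4318, 5180 and 4022 in the vitrified libraries. Cytochrome b, mt-Cytb, was at 7545 and 4192 against 2842, 3257 and 2604 FPKM (adjusted p = 0.0704). The list's median was -1.39 against fresh replicate 1 and -0.18 against fresh replicate 2. Fresh replicate 2 minus fresh replicate 1 was 0.59 for mt-Atp6, the other way from the list's median of -1.14. Every vitrified library lay below both fresh for 6 of the 13 (10.6% of all tested genes). Nuclear genes of the respiratory chain and ATP synthase gave 0 calls among 40 in limma (1 higher and 3 lower at an unadjusted p below 0.05) and a median of -0.11.

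Of the 11 genes, the deepest fall was in Gm11100, a noncoding transcript on chromosome 14 (13918444 to 13949558, mm10), at 14.98 and 11.95 FPKM in the fresh and 0.127, 0.0649 and 0.109 in the vitrified libraries. The log2 difference was -3.71 ± 0.21 SE, adjusted p = 0.000124, and the call held in all 8 fits that left out a library. Its exons overlap those of Thoc7 on the other strand, and Thoc7, an RNA export factor looked up after these values were seen, was at 191 and 179.7 against 144, 164 and 145 FPKM.

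**Figure D3:**
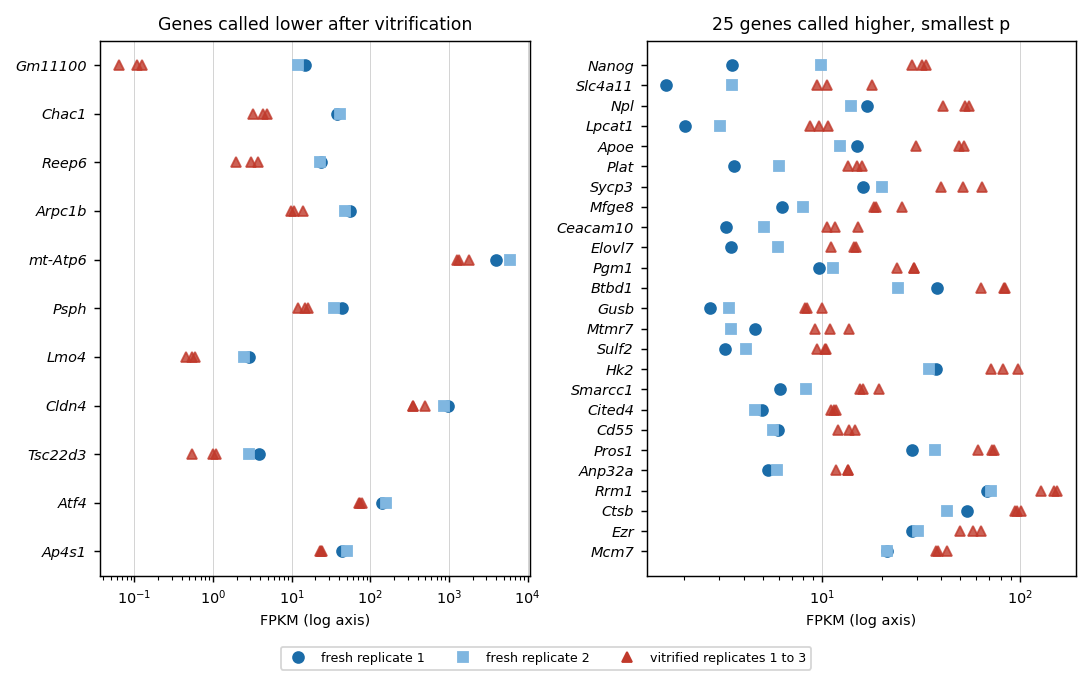
FPKM on log axes for the 11 genes that fell (left) and for 25 of the 82 genes that rose (right), with circles and squares for fresh replicates 1 and 2 and triangles for vitrified replicates 1 to 3. The groups do not overlap in any gene shown, and the fresh libraries lie further apart for Nanog, at 3.49 and 9.795 FPKM, than for Rrm1, at 68.3 and 71.03 FPKM.

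Among genes that rose, Nanog, a transcription factor of the epiblast, was at 3.49 and 9.795 FPKM in the fresh and 28.3, 31.9 and 33.3 in the vitrified libraries. The vitrified values lay close together and the fresh ones apart, and the log2 difference was 2.21 ± 0.33 SE, adjusted p = 0.0394. On the epiblast list 1 of 11 tested markers rose (0.762% of all tested genes) and 0 fell. Every vitrified library lay above both fresh for 6 (26.4% of all) and below both for 1 (10.6%). The list's median was 1.55 against fresh replicate 1 and 0.53 against fresh replicate 2, and fresh replicate 2 was itself 0.65 above fresh replicate 1. Tdgf1, a co-receptor for Nodal, was at 3.47 and 24.95 against 49.96, 68.7 and 57.5 FPKM (adjusted p = 0.0607), and Pou5f1 at 13.4 and 30.3 against 46.5, 48.2 and 36.98 (adjusted p = 0.08397). Sox2, which partners with Pou5f1, overlapped between the groups at 0.0973 and 2.76 against 0.9001, 3.19 and 3.198 FPKM. Zfp42, the marker below both fresh libraries, was at 216 and 245 against 179, 175 and 197 FPKM (adjusted p = 0.2395). In RNA from whole embryos or pools, a change in the number of cells of a type and a change of RNA per cell cannot be told apart.

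Primitive endoderm markers gave 0 calls among 10 in limma (3 higher at an unadjusted p below 0.05) and pointed in opposite directions, with a median of 0.93 against fresh replicate 1 and -0.20 against fresh replicate 2. The endoderm factor Gata6 was at 9.96 and 22.9 against 33.1, 33.7 and 34.9 FPKM (adjusted p = 0.08798). Of 12 tested trophectoderm markers 1 fell (Cldn4, against 0.102% of all tested genes), 0 rose and the median was -0.03. Every vitrified library lay below both fresh for 3 (10.6% of all) and above both for 1 (26.4%). Gata3, a trophectoderm transcription factor, was at 67.3 and 78.2 against 165, 113 and 146 FPKM (adjusted p = 0.0502), and Elf5, which maintains trophoblast stem cells, at 16.2 and 15.8 against 5.72, 6.41 and 9.33 (adjusted p = 0.0578).

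Roles were given to 54 of the 82 genes that rose, after their values were seen, and 28 were given none. Counts by role describe the called genes only, since no share of all tested genes with that role stands beside them. Genes of DNA replication and repair rose in 4 cases. Rrm1, the large subunit of ribonucleotide reductase, was at 68.3 and 71.03 FPKM in the fresh and 154, 129 and 149.5 in the vitrified libraries, a log2 difference of 1.03 ± 0.16 SE, adjusted p = 0.0394. The helicase subunit Mcm7 (log2 difference 0.87), the mismatch repair protein Msh6 (1.40) and the single-strand break repair scaffold Xrcc1 (1.09) rose as well. On the list of break repair and checkpoint genes 2 of 23 rose, 0 fell, 16 had every vitrified library above both fresh and the median was 0.50, where 0.762% of all tested genes rose and 26.4% lay above both. Of 28 tested replication genes 2 rose, 0 fell and 14 lay above both fresh libraries, and of 16 kinesins, motor proteins many of which act in mitosis, 0 passed in limma (9 higher at an unadjusted p below 0.05) and 12 lay above both, against the same 26.4%. Kif2c, which takes apart microtubule ends, was at 4.52 and 5.94 against 11.1, 10.7 and 10.2 FPKM (adjusted p = 0.0607).

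Replication genes are classic targets of E2F factors, and the letters TTCCCGC, searched on both strands, occurred for 5.29% of all genes in the promoter table and for 10.4% of the tested genes matched. They occurred for 9 of 23 matched replication genes, 8 of 15 repair genes, 10 of 52 genes that rose and 0 of 9 that fell. The stretches of Rrm1 and Mcm7, the replication genes that rose, are shown with the motif in capitals.
Rrm1, chr7:102441585-102441664, plus strand: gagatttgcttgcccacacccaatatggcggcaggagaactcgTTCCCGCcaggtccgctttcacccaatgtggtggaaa
Mcm7, chr5:138172012-138172091, minus strand: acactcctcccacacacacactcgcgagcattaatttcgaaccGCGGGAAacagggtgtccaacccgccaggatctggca

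Chromatin and cell division genes added 5 that rose, with log2 differences of 0.85 to 1.40: the histone deacetylase Hdac2, the nucleosome remodelling subunit Smarcc1, Cdyl2, Anp32a and the mitotic kinase Melk. Of 27 tested histone modifying enzymes 1 rose (0.762% of all tested genes), 0 fell and 12 lay above both fresh libraries (26.4% of all). Of 15 DNA methylation genes 0 passed in limma (4 higher at an unadjusted p below 0.05). The medians of these lists were 0.29 and 0.47. Sycp3, a component of the meiotic synaptonemal complex, rose and was at 16.1 and 20.0 against 51.4, 39.7 and 64.5 FPKM (1.45 ± 0.22 SE, adjusted p = 0.0394). The kinase gene Stk31 (1.43) and Patl2, an RNA-binding protein of oocytes (1.85), rose as well. On the oocyte list the only tested member, the egg coat gene Zp2, lay on the other side, at 3.501 and 1.25 against 0.518, 0.464 and 0.332 FPKM (adjusted p = 0.0907). Exons of Sycp3 overlap those of Chpt1 on the other strand, which was at 8.07 and 6.99 against 12.8, 11.2 and 12.95 FPKM.

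On the p53 list 1 of 19 tested genes rose (0.762% of all tested genes) and 0 fell. Every vitrified library lay above both fresh for 11 (26.4% of all), and the medians were 0.39 and 0.86 against fresh replicates 1 and 2. Perp, a p53 target and desmosome protein, was at 43.8 and 48.8 FPKM in the fresh and 170, 118 and 127 in the vitrified libraries, a log2 difference of 1.54 ± 0.28 SE, adjusted p = 0.0477. The cell cycle inhibitor Cdkn1a was at 21.7 and 6.43 against 36.9, 52.5 and 28.5 FPKM (adjusted p = 0.0945), while Trp53 overlapped between the groups at 10.5 and 11.5 against 9.497, 16.7 and 12.8. The stress kinase Plk3 lay on the other side, at 21.5 and 22.2 against 3.68, 5.75 and 3.92 FPKM (adjusted p = 0.0931). Of 17 tested BCL2 family members and caspases 0 passed in limma (3 higher at an unadjusted p below 0.05), and the median was -0.004.

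Of the 54 genes with a role given, 12 encode proteins of the cell surface, of junctions or of the extracellular space. They rose by 1.07 to 2.01 on the log2 scale, 11 of them at least 2-fold against each fresh library. Gja1, the main gap junction connexin of the embryo, was at 9.697 and 29.7 FPKM in the fresh and 85.1, 70.7 and 61.6 in the vitrified libraries (2.01 ± 0.36 SE, adjusted p = 0.0448). Spp1, which encodes the integrin ligand osteopontin, was at 53.03 and 109 against 196, 285 and 229 FPKM (1.61 ± 0.30 SE, adjusted p = 0.04802), and the integrin subunit Itgb5 at 1.803 and 4.89 against 13.4, 11.4 and 11.2 (1.68 ± 0.30 SE, adjusted p = 0.0448). In each of these genes fresh replicate 1 was lowest and fresh replicate 2 lay between it and the vitrified libraries. Mfge8 (1.42), another integrin ligand, the protease tissue plasminogen activator Plat (1.47), the anticoagulant Pros1 (1.07), the sulfatase Sulf2 (1.24), the adhesion protein Ceacam10 (1.39) and the complement regulator Cd55 (1.09) also rose. Of 15 tested integrin and implantation genes 4 rose (Ctsb, Itgb5, Spp1 and Ptges), against 0.762% of all tested genes, and 0 fell.

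A pair of linkers between membrane and actin rose. Ezr, ezrin of the apical microvilli, was at 28.4 and 30.6 FPKM in the fresh and 57.9, 49.9 and 63.8 in the vitrified libraries (0.93 ± 0.16 SE, adjusted p = 0.0407), and Marcks, which binds membrane phosphoinositides and actin, at 14.7 and 13.9 against 30.96, 39.5 and 39.7 (1.30 ± 0.23 SE, adjusted p = 0.0441). On their list 2 of 17 rose (0.762% of all tested genes), 0 fell and 8 lay above both fresh libraries (26.4% of all), and of 23 tested actins and actin binders 0 passed in limma (2 higher and 3 lower at an unadjusted p below 0.05), with a median of -0.20.

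Lysosomal and sialic acid genes that rose were Ctsb, Gusb, Npl, the sialic acid exporter Slc17a5 and the lysosomal glycoprotein Cd68. Npl, an enzyme of sialic acid breakdown, was at 16.9 and 14.04 against 40.7, 52.8 and 54.9 FPKM (1.61 ± 0.23 SE, adjusted p = 0.0394), and the protease Ctsb at 54.2 and 42.9 against 97.01, 94.3 and 101 (1.001 ± 0.17 SE, adjusted p = 0.0414). Cd68 is also a macrophage marker: the 4 analysed blood markers of a list of 8 summed to 1.76 and 2.35 FPKM in the fresh and to 5.37, 7.27 and 5.195 in the vitrified libraries, mostly Cd68 at 1.45 and 1.91 against 5.37, 5.78 and 4.66, and the part of such cells in the result was not tested. Of 22 tested lysosomal hydrolases and partners 2 rose (0.762% of all tested genes), 0 fell and 10 lay above both fresh libraries (26.4% of all). Ctsc, which activates other proteases, was at 172 and 127 against 77.3, 49.5 and 57.6 FPKM (adjusted p = 0.0586).

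Metabolic genes that rose were scattered over several pathways. Hk2, a hexokinase that commits glucose to metabolism, was at 37.8 and 34.9 FPKM in the fresh and 82.2, 97.5 and 71.7 in the vitrified libraries (1.17 ± 0.17 SE, adjusted p = 0.0394). The phosphoglucomutase family gene on chromosome 5 listed as Pgm1 was at 9.598 and 11.3 against 29.2, 29.2 and 23.8 FPKM (1.31 ± 0.20 SE, adjusted p = 0.0394). Of 16 tested glycolysis genes Hk2 alone rose (0.762% of all tested genes), and 4 lay above both fresh libraries (26.4% of all). Tpi1, an enzyme of the middle of the pathway, was at 273 and 237 against 174, 161 and 188 FPKM (adjusted p = 0.0917). Lipid genes that rose were Lpcat1, which remodels phosphatidylcholine, at 2.01 and 3.04 against 8.64, 10.6 and 9.595 FPKM (1.60 ± 0.21 SE, adjusted p = 0.0324), the fatty acid elongase Elovl7 (1.37), the epoxide hydrolase Ephx2 (2.23), Cyp4f39 (1.96), the phosphoinositide phosphatase Mtmr7 (1.28) and the prostaglandin E synthase Ptges (0.77). The lipid carrier Apoe was at 14.95 and 12.2 against 29.8, 49.1 and 51.8 FPKM (1.58 ± 0.26 SE, adjusted p = 0.0394). Of 20 tested fatty acid oxidation and lipid droplet genes 0 passed in limma (10 higher at an unadjusted p below 0.05), 12 lay above both fresh libraries (26.4% of all tested genes) and the median was 0.51 and 0.46 against fresh replicates 1 and 2. Plin3, a lipid droplet coat protein, was at 54.6 and 53.8 against 117, 83.7 and 107 FPKM (adjusted p = 0.05902). The ion transporters Slc4a11 (1.93) and Slc39a4, a zinc importer (1.49), rose.

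Several stress defences gave no call. Of 20 tested antioxidant enzymes 0 passed in limma (1 higher and 2 lower at an unadjusted p below 0.05), and of the enzymes that dispose of superoxide Sod1 was at 30.4 and 23.2 against 29.5, 54.8 and 35.3 FPKM and Sod2 at 265 and 198 against 255, 221 and 229.8. Gpx4, which reduces lipid peroxides, was at 92.8 and 48.6 against 58.6, 56.3 and 61.5 FPKM, and catalase, Cat, at 15.9 and 14.4 against 27.6, 18.4 and 20.2 (adjusted p = 0.3002). Of 18 tested targets of the antioxidant factor Nfe2l2 0 passed in limma (3 higher and 2 lower at an unadjusted p below 0.05) and the median was 0.06. Heme oxygenase Hmox1, such a target, was at 23.95 and 22.9 against 14.8, 13.8 and 17.03 FPKM (adjusted p = 0.1503). Of 17 chaperones of the endoplasmic reticulum (2 higher and 2 lower) and 14 of the cytosol (4 higher and 1 lower at an unadjusted p below 0.05) 0 passed in limma. Among the former, Hspa5 was at 59.3 and 132 FPKM in the fresh and 177, 144 and 129 in the vitrified libraries, with fresh replicate 1 apart. A p that missed the threshold does not show that levels were equal.

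**Figure D4:**
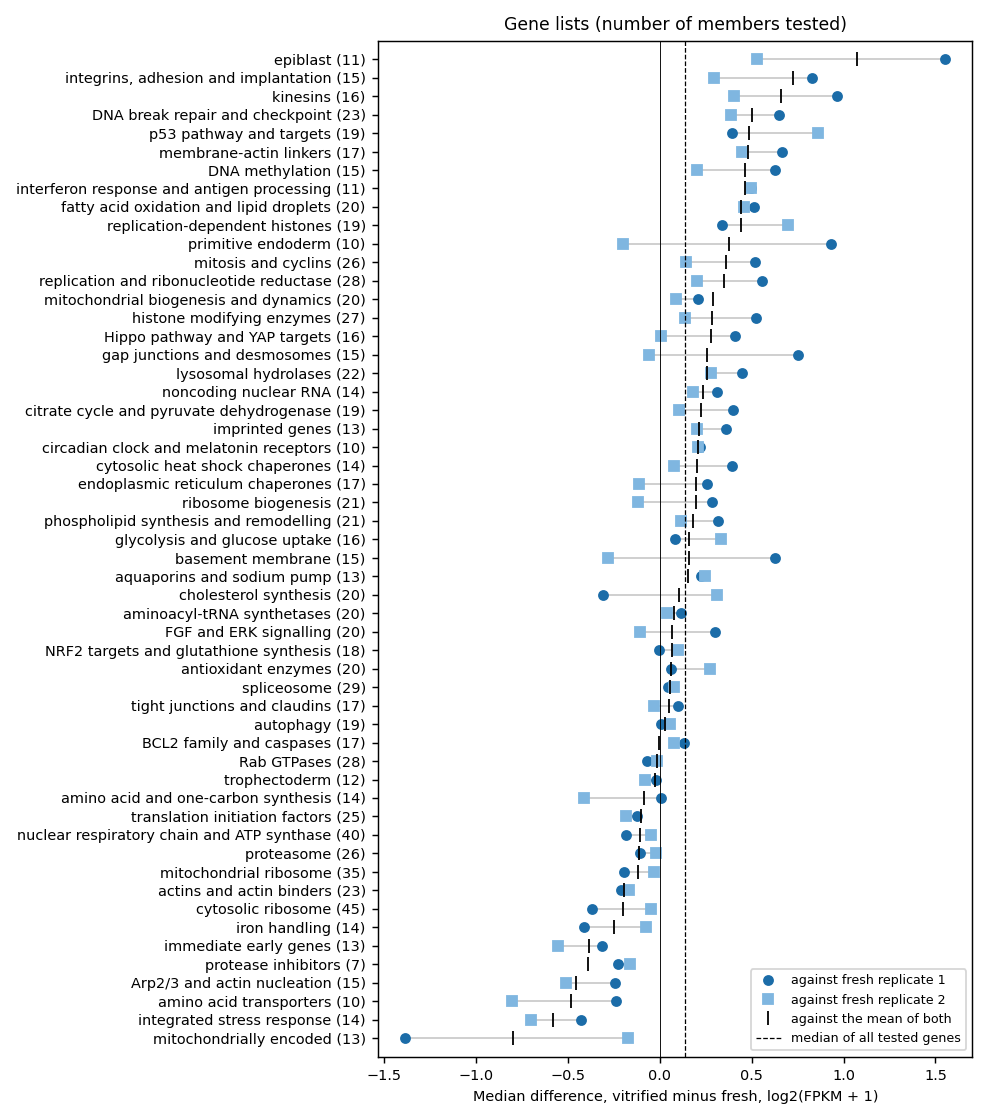
Median difference (vitrified minus fresh, log2(FPKM + 1)) of the 54 gene lists with at least 5 tested members, against fresh replicate 1 (circles), fresh replicate 2 (squares) and the mean of both (black ticks), with the median of all tested genes, 0.14, as a dashed line. For 10 lists the medians against the fresh libraries have opposite signs, among them primitive endoderm at 0.93 and -0.20.

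Of the 82 genes that rose 17 were not protein-coding, and many of these lay inside other genes. Of 100 tested noncoding genes inside a coding gene on its own strand 8 rose, 44 (44%) had every vitrified library above both fresh, and the median difference was 0.51 (0.84 and 0.37 against fresh replicates 1 and 2). For protein-coding genes the share was 26.7% and the median 0.14, and 65 of 9636 rose. Noncoding genes inside a coding gene on the other strand had a share of 24.4% and those over no coding gene 19.8%. Some of the 8, such as Gm28791 and Gm37646, reached 1 FPKM in no library outside the vitrified group. Such genes pass the filter only through the libraries vitrified without melatonin, and how far this raised the 44% was not tested. The host genes of the 8 were not called, with log2 differences from -0.30 (Satb1) to 0.93 (Rfc1). Gm42467, for example, was at 0.138 and 1.31 FPKM in the fresh and 5.71, 9.57 and 5.05 in the vitrified libraries (2.22 ± 0.34 SE, adjusted p = 0.0394), within Tmem248, whose log2 difference was -0.07. Reads of a noncoding gene within an intron and of unspliced transcripts of its host cannot be told apart in a table of gene values. Among all 19688 genes, tested or not, 524 were above 0 in all 3 vitrified libraries and listed at 0 in both fresh, with a median of 0.255 FPKM. The reverse, above 0 in both fresh and at 0 in all 3 vitrified, held for 37. These patterns ask for unlike numbers of zeros. Each vitrified library also had more genes above 0 than either fresh one, 15749 to 16400 against 14260 and 14741. Only 14 of the 524 reached 1 FPKM in every vitrified library, among them the homeobox gene Gsc at 3.14, 1.38 and 2.21 FPKM and Nr0b1, a nuclear receptor of pluripotent cells, at 1.97, 1.85 and 5.12.

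Libraries also differed by transcript length and by the sex of the embryos, neither of which followed the groups throughout. Against fresh replicate 1 the median difference rose with transcript length, from -0.05 in the shortest of 4 equal groups of genes over 0.13 and 0.28 to 0.41 in the longest, while against fresh replicate 2 it was 0.08, 0.08, 0.06 and 0.06. Y-linked transcripts summed to 20.9 and 26.0 FPKM in the fresh libraries, 36.8 in vitrified replicate 1 and 0 in vitrified replicates 2 and 3. Xist, the RNA of X inactivation in females, was at 0.139 and 0.963 against 0.684, 10.5 and 8.14 FPKM. Of 362 tested X-linked genes 0 rose (0.762% of all tested genes), 1 fell (Tsc22d3, against 0.102% of all) and the median was 0.25. The X-linked median stood above the autosomal one by 0.11 and 0.25 in vitrified replicates 2 and 3, and by -0.07 in vitrified replicate 1. A fit after trends with length and GC content were removed gave 5 higher and 8 lower genes, 12 of them among the 93. One with embryo sex as a term gave 1 higher and 3 lower, and only 1 of these 4 was among the 93. All 93 genes kept their direction with trends removed. The median there was 1.22 over the 82 that rose, beside 1.39, and -1.57 over the 11 that fell, beside -1.39. The fit with sex compares vitrified replicate 1 alone with the fresh mean, since its term takes up vitrified replicates 2 and 3. The groups overlapped in none of the 93, so their direction could not turn in that fit. Its medians, 1.37 and -1.62, describe vitrified replicate 1 only.

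**Figure D5:**
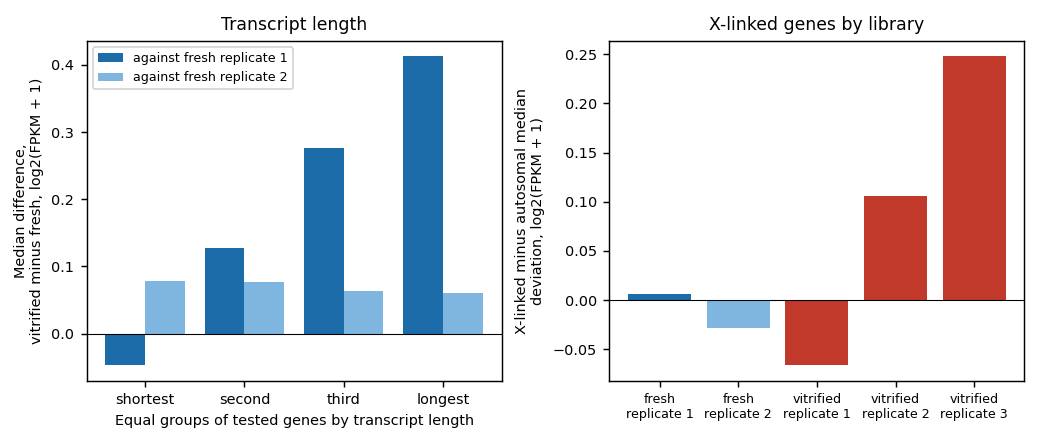
Left, median difference (vitrified minus fresh, log2(FPKM + 1)) in 4 equal groups of the tested genes by transcript length, against fresh replicates 1 and 2, which climbs to 0.41 against the former and stays near 0.07 against the latter. Right, median deviation of X-linked minus autosomal genes in each of the 5 libraries, in log2(FPKM + 1), highest in vitrified replicate 3 at 0.25.

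Housekeeping levels set a limit on some values. Gapdh, the glycolytic enzyme commonly used as a reference, was listed at 0.893 and 1.22 FPKM in the fresh and 0.859, 1.2 and 0.946 in the vitrified libraries, and the ribosomal protein Rpl11 at 0.5504 and 1.06 against 1.19, 1.796 and 0.778, while Rplp0 was at 624 and 422 against 331, 411 and 364. Gapdh and Rpl11 have many near-identical pseudogene copies, and genes that share reads with copies have uncertain levels here. Exons of Psph, Ap4s1, Mcm7, Msh6, Ctsb, Ezr, Smarcc1, Sulf2, Mtmr7, Psmb9, Cd55, Bcas3, Aldh1l1 and Rarb overlap a coding gene or transcript on the other strand. Without known use of strand their reads and those of the overlapping gene cannot be told apart. Exons of Spp1 overlap those of Gm42793 on the same strand, where use of strand would not separate the reads.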

How the data were processed

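RNA was sequenced from mouse blastocysts. The series description names Smart-seq2, while the sample protocol describes TRIzol extraction, poly(A) selection and stranded libraries, so the library method is not settled. The authors deposited 1 table of FPKM values, each library scaled on its own. The submitters' processing notes name build mm10. The aligner, counting tool, annotation, filters and strand setting were not given in the sources used here. All value columns were used. Depth was estimated from the values: for genes with 1 annotated transcript, 94.5% to 96.4% of low values were whole multiples of 1 fragment (within 0.1, where chance gives 20%). Groups and replicate numbers came from the biosample descriptions.

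Ensembl identifiers were matched to GENCODE M21 (19577 genes, 99.4%). Differences of log2(FPKM + 1) between vitrified and fresh were fitted with limma 3.58.1 (R 4.3.3) in all 8 libraries with a variance trend, and p-values were adjusted over 10755 genes. Tables and plots used Python 3.11.15, pandas 2.3.3 and matplotlib 3.10.9. The fit was tested on simulated data with independent noise and no difference between libraries by length or sex. That test does not cover such differences, which these libraries show. The pairing check is in the closing section.

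The comparison and the 60 gene lists were chosen with earlier results of these data known. Named were all genes that fell, the 25 that rose with the smallest p whose mean reached 5 FPKM and whose symbol is not provisional, other called genes by role, up to 2 members per list and direction, a set of stress and lineage genes, the widest gaps between the fresh libraries (8 per direction) and up to 4 called noncoding genes; some of these are not reported here. Further list members, promoters, overlapping and host genes, and genes listed at 0 in the fresh group, were named after their values were seen. Promoters came from RefSeq on GRCm38.p6. Other settings tried concern scaling, filters, pseudocount, model terms, thresholds and single libraries.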

Additional observations from a re-analysis of the deposited data

How the results depend on the processing

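Counts of called genes moved with most settings, and where no value or construction shows it the cause was not tested. For higher genes, against 82, the count was 182 with TPM scaling, 3 with median ratio scaling, 0 with quantile normalization, 0 with no filter, 3 with only the fresh and vitrified libraries in the fit, 0 with library weights, 5 with GC content and length trends removed, 1 with embryo sex as a covariate and 571 at an adjusted p below 0.1. For lower genes, against 11, it was 4 with median ratio scaling, 3 with quantile normalization, 1 with no filter, 1 with library weights, 3 with embryo sex as a covariate and 115 at an adjusted p below 0.1. Of limma's counts of 0, no filter had 2312 higher genes at an unadjusted p below 0.05 and library weights 1336. The sex fit rests on vitrified replicate 1, the only vitrified library with Y-linked transcripts. Leaving out 1 library gave 0 (without vitrified replicate 3) to 373 (without fresh replicate 2) higher and 2 to 60 lower genes, the same libraries setting both limits. Without fresh replicate 1 there were 14 higher genes, without vitrified replicate 1 or 2 there were 3 or 4, and without melatonin replicate 1, 2 or 3 there were 33, 38 or 3. These were partly other genes: of all 17 called without fresh replicate 1, 5 were among the 93, of 7 without vitrified replicate 1, 3, and of 8 without vitrified replicate 2, 6. A lone fresh library is there assumed to vary like the other groups. With the biosample number as a replicate block, 0 higher genes (1440 at an unadjusted p below 0.05) and 1 lower gene passed. Deviations of the same-numbered fresh and vitrified libraries correlated at -0.115 and -0.091 (with 2 fresh libraries, differently numbered pairs give the same values with the sign turned). Those of vitrified and melatonin libraries correlated at 0.121, 0.068 and -0.03. The biosample numbers were not taken as pairs, though such small values cannot show that pairs are absent. The sample titles carry other numbers, which were not used. The median of all tested genes turned from 0.14 to -0.024 with quantile normalization, and leaving out 1 of the 5 libraries put it between 0.07 and 0.22. Among called genes, 0 changed direction under the settings other than thresholds. Leaving out 1 library or the melatonin libraries, or changing the filter, the variance trend or the pseudocount, could not turn a direction. Library weights and embryo sex as a covariate could not either, since the groups overlapped in none of the 93. Only Arpc1b and Gm11100 kept their calls in all 8 fits without 1 library, while of the 82 higher genes 0 kept theirs in more than 4. Depth limits genes near 1 FPKM, and having 2 fresh libraries limits every comparison.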
